A study of Mus musculus with 61 samples.

Results

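H19, Igf2 and 8 other imprinted genes tied to growth, namely Igf2r, Cdkn1c, Meg3, Dlk1, Peg3, Mest, Plagl1 and Grb10, were followed through 61 mouse RNA-seq libraries. They were taken by symbol and make up 10 of the 24421 gene rows counted in each library. H19 was chosen by its own counts in these libraries, which were high with STAT5B, N642H and Y665F, so its levels with these vectors are a description and carry no test. The other 9 were named alongside it.

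Naive CD4+ T cells were sorted from pooled lymph nodes and spleens of WT mice or of Stat5a/b-null mice, in which Cd4-Cre had deleted floxed Stat5a and Stat5b in the thymus, in CD4 and CD8 cells alike. They were activated through the T-cell receptor and CD28 and transduced with a retrovirus that was empty or carried STAT5B, either unmutated or as the N642H, Y665F or Y665H form, kept with IL-2 for 48 h and sequenced as sorted CD4+ GFP+ cells, 3 libraries per vector and background. The genotype label names floxed Stat5a/b for all 30 of these libraries, so the background follows the titles. T cells from spleens cultured for 24 h with IL-2 and IL-7 gave 4 WT, 4 Y665H and 4 Y665F libraries, and 3 more Y665F libraries had no cytokine and no culture time in their labels. Y665H libraries 1, 2 and 4 of these T cells held 3310342, 2017012 and 5327354 reads on genes, the last being the exact sum of those before it. The lowest chi-square per degree of freedom between 2 libraries of this group was 3.33, against 6.67 or more in every other group. Library 4 therefore appears to hold the merged reads of libraries 1 and 2 and not to be an independent replicate. It was fitted as a library of its own, and so entered the spread shared by all splenic T cell tests. A further 4 WT, 5 Y665H and 7 Y665F libraries have spleen as their source and splenocyte in their titles, and are called spleens here. All mice were labelled C57BL/6 and 2 months old, the edited lines being made in C57BL/6N, Y665H was introduced by base editing and Y665F by CRISPR/Cas9, and both mutations lie in the endogenous Stat5b gene.

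The CD4+ libraries held 18825994 to 49850689 reads on genes, those of splenic T cells 2017012 to 27394249 and the spleens 24203179 to 43330536. Stat5b, the gene deleted and re-expressed, had 2.78 to 9.49 CPM (counts scaled to the library size) in null cells with the empty vector, 186 to 365 with the constructs, 187 to 209 in WT cells with the empty vector and 374 to 564 with the constructs. A summed level of 10 T cell marker genes of 2849 to 4498 CPM stood in every CD4+ library against at most 6.38 CPM for 8 B cell, 5.46 for 7 erythroid and 6.93 for 7 neutrophil genes. Macrophage markers reached 8.77 CPM, progenitor markers 9.76 and pancreas and liver markers 5.20. The sum of 10 stromal and endothelial genes was higher, at 60.5 to 178.6 CPM. The globin genes Hba-a1, Hbb-bt and Hbb-bs were listed at 0 in all CD4+ and splenic T cell groups, and Hbb-bt also in spleens. CPM were scaled within each of the 3 experiments separately, so levels are compared inside an experiment and only placed side by side between them.

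Imprinted genes are expressed mainly from the copy inherited from 1 parent. H19, a long non-coding RNA made from the maternal copy, and Igf2, a fetal growth factor made from the paternal copy, lie close together and share enhancers in the embryo, where an insulator between them decides which is read. Both are high in fetal tissues and low in most adult ones, and STAT5 is the transcription factor that carries the signal of IL-2 and IL-7 in T cells.

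On GRCm38, H19 spans chr7:142575529-142578143 on the minus strand as a lincRNA, and Igf2 spans chr7:142650766-142666816 on the same strand. The annotated start of Igf2 lies 88.7 kb from that of H19. An exon of H19 holds the microRNA gene Mir675, at chr7:142577064-142577147, whose hairpin is shown because it lies within the H19 transcript. The capitals mark the mature arms, and all RNA and promoter sequences here are from RefSeq.
Mir675 hairpin: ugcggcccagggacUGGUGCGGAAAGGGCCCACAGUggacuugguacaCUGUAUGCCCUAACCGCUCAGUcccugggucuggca

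The mature forms of Mir675 and the microRNAs inside Igf2 and Mest are shown with the seed, bases 2 to 8, in capitals. miR-483 lies in an intron of Igf2 and miR-335 in an intron of Mest.
miR-675-5p: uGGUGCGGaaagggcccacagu
miR-675-3p: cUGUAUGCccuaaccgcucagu
miR-483-3p: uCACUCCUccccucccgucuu
miR-483-5p: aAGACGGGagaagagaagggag
miR-335-5p: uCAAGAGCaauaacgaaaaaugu
miR-335-3p: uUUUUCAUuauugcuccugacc
These 6 have 6 different seeds, and none of the 1738 mature mouse microRNAs of the table shares a seed with them. Libraries were made from total RNA without selection for small RNA, and Mir675 had 0 reads in all 61 libraries. It lies in an H19 exon on the same strand, so reads over it may have been set aside as ambiguous in the counting. The 0 therefore gives no measure of Mir675. Mir483 had 1 read in 1 library. The counts are of the host transcripts and give no level of the mature microRNAs.

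Promoter sequence was at hand for 8 of the 10 genes, H19 and Cdkn1c being the exceptions. Of Igf2 and Mest, the genes called with a construct in CD4+ T cells by edgeR without a block for the replicate number, 1 stretch of 250 bases upstream of an annotated start is shown each. The Igf2 stretch is chr7:142657497-142657746 on the minus strand and the Mest stretch is chr6:30737800-30738049 on the plus strand.
Igf2: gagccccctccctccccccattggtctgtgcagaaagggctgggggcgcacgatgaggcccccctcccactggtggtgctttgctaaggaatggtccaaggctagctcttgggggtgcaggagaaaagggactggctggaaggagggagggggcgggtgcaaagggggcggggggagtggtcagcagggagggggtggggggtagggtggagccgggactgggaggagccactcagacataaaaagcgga
Mest: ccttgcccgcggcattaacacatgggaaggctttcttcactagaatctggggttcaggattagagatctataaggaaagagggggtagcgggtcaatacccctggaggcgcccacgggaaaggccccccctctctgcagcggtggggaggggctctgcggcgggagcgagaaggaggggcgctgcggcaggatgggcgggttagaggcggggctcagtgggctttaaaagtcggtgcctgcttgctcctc
The letters TTCNNNGAA, the palindrome that STAT5 binds, were searched on both strands in the 300-base windows of which these stretches are a part. They occurred in 0 of the 15 windows of the 8 genes and in 8.3% of 32851 windows of all mouse genes. No match says only that these letters were not in these windows.

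With the empty vector, H19 was near the floor of detection in cells without Stat5a/b, at 2, 4 and 1 reads in the 3 libraries, and it was higher in every library with N642H or Y665F. The N642H libraries had 1235, 172 and 133 reads, and the Y665F libraries had 945, 291 and 21 reads. With STAT5B there were 21, 33 and 3 reads, of which the last was below the highest empty-vector library in reads but not in CPM. With Y665H there were 2, 6 and 3 reads, which overlapped the empty vector. In CPM the means were 0.0685 ± 0.0423 (SD, n = 3) with the empty vector, 0.463 ± 0.309 for STAT5B, 14.2 ± 15.9 for N642H, 12.1 ± 14.7 for Y665F and 0.109 ± 0.0737 for Y665H.

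Replicate 1 supplied most of the H19 reads of the null cells with N642H and with Y665F. The SD exceeded the mean in both groups. The fitted log2 fold change over the empty vector was 7.57 with N642H and 6.09 without N642H replicate 1, and it was 7.34 with Y665F and 5.71 without Y665F replicate 1. With STAT5B it was 2.75. With Y665H it was 0.55, and -0.10 without Y665H replicate 2. These fold changes rest on 7 reads in the empty-vector group.

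WT cells, which keep their own Stat5a and Stat5b, had more H19 with the empty vector and with each of these 3 constructs. H19 had 20, 13 and 18 reads with the empty vector, more than any null library with the empty vector. With STAT5B it had 1323, 788 and 337 reads. With N642H it had 1916, 3825 and 3100 reads, and with Y665F 2776, 4386 and 3515 reads. No library of these 3 groups overlapped the empty vector.

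The mean level of H19 in WT cells was 0.419 ± 0.138 CPM with the empty vector, 20.7 ± 12.4 with STAT5B, 92.9 ± 26.6 with N642H and 109 ± 8.87 with Y665F. As ratios of the mean CPM to the empty vector these are 49.4, 222 and 261. The fitted log2 fold changes were 5.65, 7.82 and 8.05. In null cells the same 3 ratios were 6.76, 208 and 177, and the difference between backgrounds was not tested for H19.

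Ordered by mean CPM, H19 went from WT Y665F and WT N642H through WT STAT5B, null N642H, null Y665F, WT Y665H, null STAT5B and WT empty to null Y665H and null empty. Neighbours in this order overlapped in their libraries, except that every WT N642H library was above every WT STAT5B library and every WT empty library was above every null Y665H library. Of all reads on the 10 genes, H19 took 28.6 to 40.49% per library in WT cells with Y665F and 0.1146 to 0.2481% with the empty vector. Scaled by exon length, H19 was the highest of the 10 genes in WT cells with Y665F, at 44.4 CPM per kb against 19.01 for Igf2r, and in WT cells with N642H.

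Y665H in WT cells was not among the vectors that H19 was picked for, but it shares the empty-vector libraries with them. H19 had 62, 18 and 16 reads with Y665H, where replicate 1 stood above and the other libraries overlapped the empty vector. The mean was 1.13 ± 1.18 CPM, the log2 fold change was 1.30 (SE 0.75), and edgeR gave an unadjusted p of 0.104 and an adjusted p of 1. None of the 10 genes was called in this comparison.

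**Figure D1:**
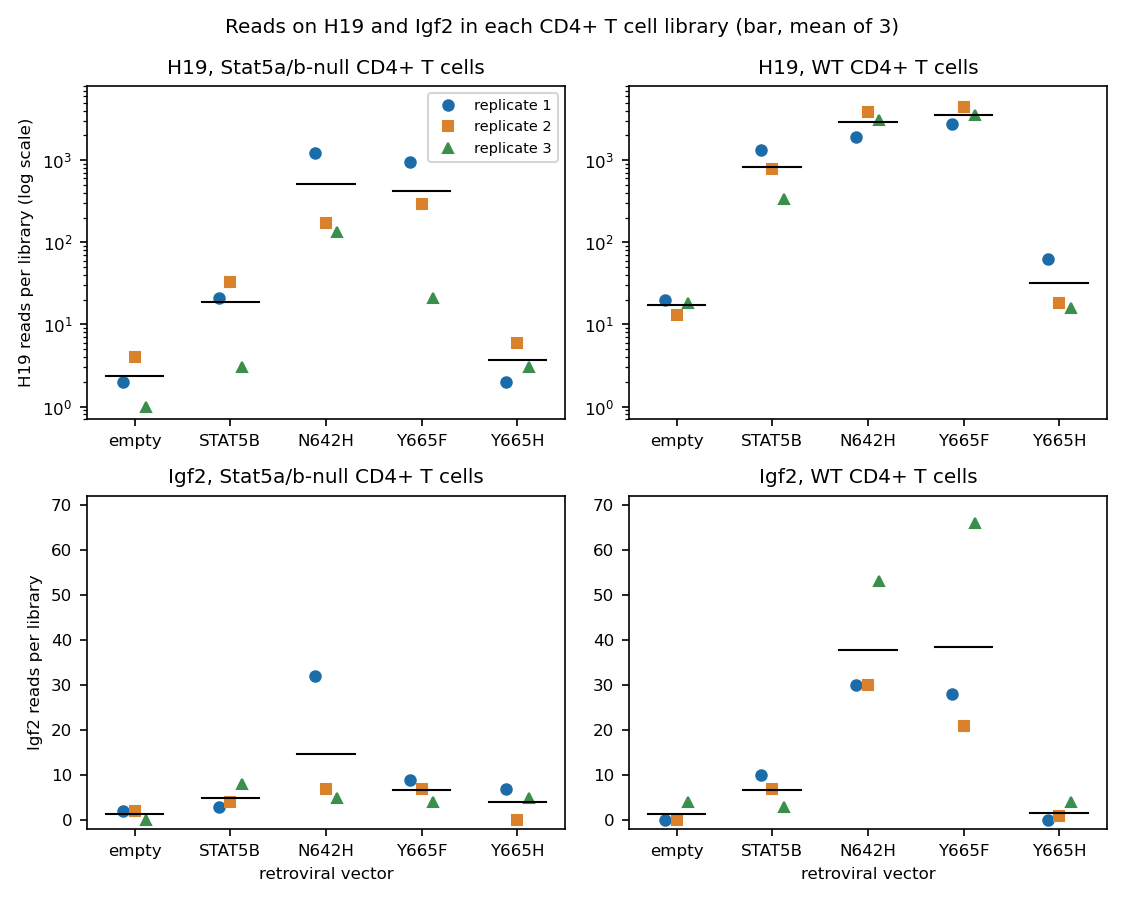
Raw reads on H19 (top, log scale) and Igf2 (bottom, linear scale) in each of the 30 CD4+ T cell libraries, by retroviral vector, with Stat5a/b-null cells on the left and WT cells on the right. Symbols mark the replicate number and bars the mean of 3 libraries. H19 spans 1 to 4386 reads, while Igf2 stays between 0 and 66.

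Igf2, the growth factor gene beside H19, also rose in WT cells with N642H and Y665F, at a far lower level. In WT cells it had 0, 0 and 4 reads with the empty vector. With N642H it had 30, 30 and 53 reads, and with Y665F 28, 21 and 66 reads, without overlap. A gene was called where its adjusted p was under 0.05 and its log2 fold change beyond 1. In WT cells Igf2 rose with N642H (log2 fold change 5.12, SE 0.90, edgeR adjusted p = 0.00814) and with Y665F (5.13, SE 0.90, adjusted p = 0.0115).

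By edgeR without the replicate number as a block, Igf2 was the only called gene of the 9 tested in each of these WT comparisons. There, 0.985% of 20509 genes were called with N642H and 0.707% with Y665F. The empty-vector group holds 4 reads in all, so the size of the fold change depends on the fit. The call with N642H was lost without WT empty replicate 2 (log2 fold change 4.56, adjusted p = 0.0511), and the call with Y665F without WT empty replicate 1 (4.68, adjusted p = 0.0563) or 2 (4.56, adjusted p = 0.0666).

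At its highest, Igf2 reached 1.86 CPM in a WT library with Y665F, in which H19 stood at 99.1 CPM. With STAT5B the WT libraries had 10, 7 and 3 reads of Igf2, overlapping the empty vector. With Y665H they had 0, 1 and 4 reads, overlapping too. Neither group was called. Igf2os, the antisense transcript that overlaps Igf2 exons, had at most 6 reads per CD4+ library, and since the strand setting of the counting is not given, reads of the pair cannot be told apart.

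In null cells Igf2 had 2, 2 and 0 reads with the empty vector. N642H gave 32, 7 and 5 reads, of which replicate 1 was again the highest. The log2 fold change with N642H was 3.26 (SE 1.06, edgeR adjusted p = 0.0549) and missed the threshold, while with the replicate number as a block it was 3.04 with an adjusted p of 0.0449. With Y665F there were 9, 7 and 4 reads (log2 fold change 2.22, adjusted p = 0.239). STAT5B gave 3, 4 and 8 reads and Y665H 7, 0 and 5.

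Summed markers of stroma were lower in WT cells with N642H and Y665F than with the empty vector, and overlapped it in null cells. The sum of 10 stromal and endothelial genes was 110.7 to 141.3 CPM in WT cells with the empty vector, 64.8 to 84.0 with N642H and 60.5 to 80.7 with Y665F. With STAT5B in WT cells it was 76.0 to 115.3 CPM, overlapping the empty vector. In null cells it was 97.5 to 178.6 with the empty vector, 80.0 to 107.7 with N642H and 75.7 to 104.3 CPM with Y665F. None of the 10 was called with N642H or Y665F in either background (1 of 10 at an unadjusted p under 0.05 in each of these comparisons), and none was at 0 in a whole group of these vectors. The T cell sum was 2849 to 3501 CPM for WT N642H and 3223 to 3749 for WT Y665F, of which the second overlapped the 3530 to 4498 of WT empty. Their part in the H19 and Igf2 values was not tested.

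The genes around H19 were looked up as well. Within 250 kb on either side, 22 other genes are annotated and 14 of them are in the count tables, 2 with 0 reads in all CD4+ libraries. Apart from Igf2, 1 was called with a construct, Tnnt3, a skeletal muscle troponin gene, which fell with Y665F in null cells from 1.70 ± 0.49 to 0.607 ± 0.321 CPM (log2 fold change -1.46, SE 0.37, adjusted p = 0.0173). In that comparison 2.37% of all genes were called. Nctc1, a non-coding transcript next to H19, had at most 6 reads per library. Ctsd, a lysosomal protease gene, had a log2 fold change of 0.19 (SE 0.12, adjusted p = 0.529) with Y665F in WT cells.

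The 5 genes whose log2(CPM + 1) followed H19 most closely over the 30 CD4+ libraries were Myh11 (Pearson r = 0.963), Gm4926 (0.961), Hhex (0.942), Gpx3 (0.941) and Coro6 (0.940). These libraries share 5 vectors and 2 backgrounds, so the values describe a common pattern over them. Of the other 9 genes, Igf2 (r = 0.834) and Mest (0.667) were closest to H19 and Meg3 (-0.485) was farthest.

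Igf2r encodes the receptor that binds IGF2 and delivers it to lysosomes, and it was the most abundant of the other 9 genes in CD4+ T cells. In null cells it stood at 171 ± 22.5 CPM with the empty vector and at 200 ± 14.2, 208 ± 23.5 and 221 ± 30.3 with STAT5B, N642H and Y665F. Every library of these 3 groups lay above every empty-vector library. With Y665H it was 149 ± 20.4.

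In WT cells the Igf2r means ran the other way. The level was 237 ± 18.8 CPM with the empty vector, 185 ± 32.3 with N642H and 177 ± 31.1 with Y665F, both without overlap. The log2 fold change with Y665F was 0.34 (SE 0.14) in null cells and -0.41 (SE 0.16) in WT cells, neither called. The difference of 0.79 between them (SE 0.22) had an adjusted p of 0.135, and that for N642H was 0.65 (SE 0.22, adjusted p = 0.276). Neither passed the threshold.

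Mest, which encodes an alpha/beta-hydrolase fold protein made from the paternal copy, was the member called in null cells without the replicate number as a block. It had 37, 29 and 16 reads with the empty vector, 83, 68 and 36 with N642H and 59, 92 and 33 with Y665F. In CPM it rose from 0.803 ± 0.235 to 1.80 ± 0.38 with N642H (log2 fold change 1.11, SE 0.33, edgeR adjusted p = 0.0329) and to 1.76 ± 0.393 with Y665F (1.10, SE 0.33, adjusted p = 0.0401), with no overlap in CPM. It was the only call among the 9 tested genes in each comparison, where 2.88% of 20113 genes were called with N642H and 2.37% with Y665F. With the block, N642H gave 2 calls, Mest and Igf2, against 3.76% of all genes.

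Both Mest calls depended on single libraries. With N642H the call was lost without null empty replicate 2 (adjusted p = 0.0871) or 3 (0.113) or without N642H replicate 1 (0.142). With Y665F it was lost without null empty replicate 2 or 3 or Y665F replicate 1 or 2, with adjusted p-values from 0.106 to 0.152. In WT cells Mest had 30, 59 and 32 reads with the empty vector, 32, 77 and 48 with N642H and 47, 75 and 67 with Y665F. Its log2 fold change there was 0.78 (SE 0.40, adjusted p = 0.527) with N642H and 1.00 (SE 0.39, adjusted p = 0.254) with Y665F, not called, though every Y665F library lay above every empty-vector library. With the replicate number as a block, Mest was called with Y665F in WT cells, where 2.44% of all genes were called. STAT5B and Y665H overlapped the empty vector in both backgrounds. An exon of Copg2 overlaps Mest on the opposite strand, and reads in the overlap cannot be told apart without the strand setting.

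**Figure D2:**
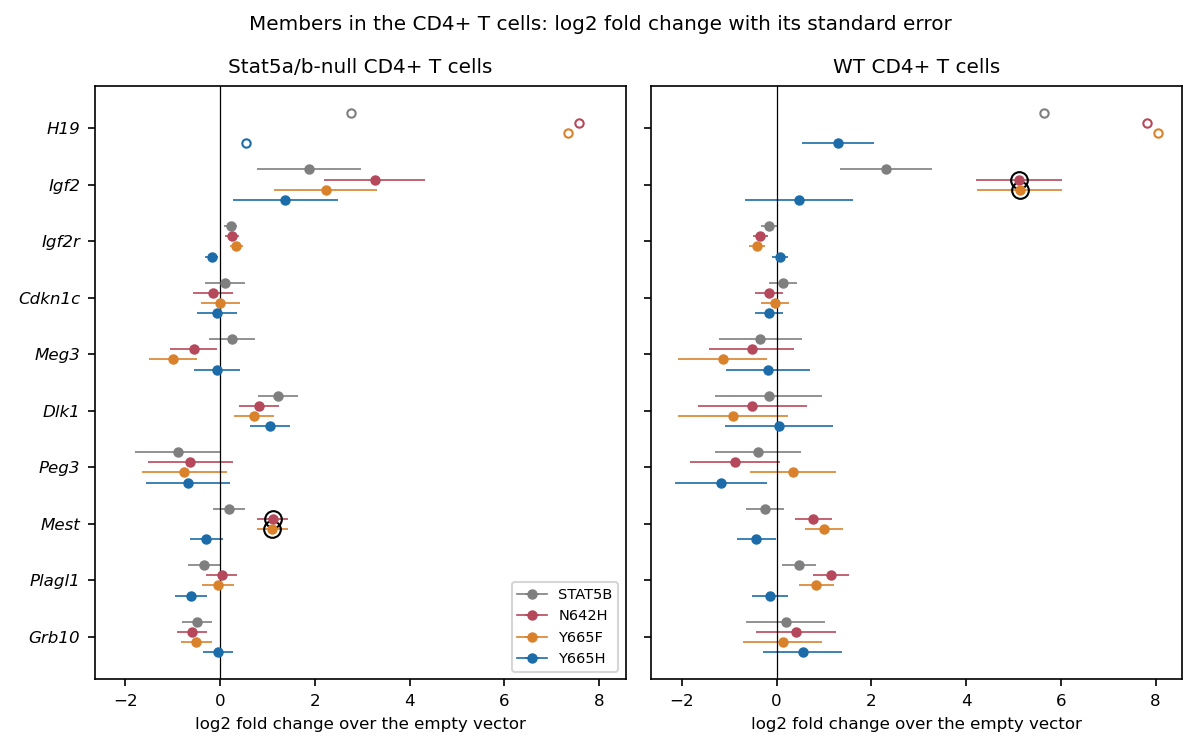
Log2 fold change of each of the 10 genes relative to empty vector, for Stat5a/b-null (left) and WT (right) CD4+ T cells, with bars of 1 standard error; open points are H19 values given without a test and rings mark called genes. Rings stand on Mest with N642H and Y665F in null cells and on Igf2 with the same vectors in WT cells.

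With STAT5B in null cells, 0 of the 9 genes was called by edgeR against 0.477% of all genes, 1 had an unadjusted p under 0.05 and DESeq2 called 0. That 1 gene was Dlk1, which encodes a transmembrane Notch-family protein of fetal and progenitor cells. It had 400, 317 and 91 reads with the empty vector and 895, 1054 and 208 with STAT5B. The log2 fold change was 1.22 (SE 0.42, adjusted p = 0.16). In null cells replicate numbers paired the libraries, and with the number as a block Dlk1 was called (1.23, adjusted p = 0.000358), the single call among the 9 against 1.01% of all genes.

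With Y665H, Dlk1 in null cells was higher in every library. There were 841, 505 and 429 reads, all above the empty vector. None of the 9 genes was called by edgeR against 0.0249% of all genes, 1 had an unadjusted p under 0.05 and DESeq2 called 0. Dlk1 had a log2 fold change of 1.06 (SE 0.42, adjusted p = 0.896) without the block and 1.20 (adjusted p = 0.00513) with it, when it was the single call against 0.104% of all genes. N642H had 604, 849 and 164 reads and Y665F 603, 572 and 186. Each construct library thus had more Dlk1 than the empty-vector library of its number, by 1.44 to 4.09 times in CPM.

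Dlk1 in WT cells varied more between libraries than between vectors. Replicate 3 of the 5 vectors had 720 to 2016 reads and replicates 1 and 2 had 46 to 326. The empty vector had 143, 326 and 1795 reads and Y665F 60, 109 and 720. Its log2 fold change with Y665F was -0.92 (SE 1.16, adjusted p = 0.808). It was 0.59 without WT empty replicate 3. Each Y665F library nonetheless had less Dlk1 than the empty-vector library of its number, at 0.369 to 0.609 times its CPM. The same held for N642H, at 0.484 to 0.731 times, and STAT5B, at 0.850 to 0.905 times. Y665H ranged from 0.675 to 1.06 times. With the replicate number as a block the log2 fold change with Y665F was -1.02 and was called, against 2.44% of all genes. Of the same-numbered pairs of WT libraries, 29 of 30 deviated together, which fell short of the pairing rule that every pair do so.

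Meg3, a maternally expressed non-coding RNA downstream of Dlk1, was scarce in CD4+ T cells, with 1 to 46 reads per library. In null cells with Y665F its 12, 13 and 6 reads were below the empty vector's 25, 24 and 12 in CPM, and the log2 fold change of -0.996 (SE 0.51, adjusted p = 0.268) was not called. In WT cells replicate 3 again held the most reads, with 17 to 46 against 1 to 12 in the others.

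**Figure D3:**
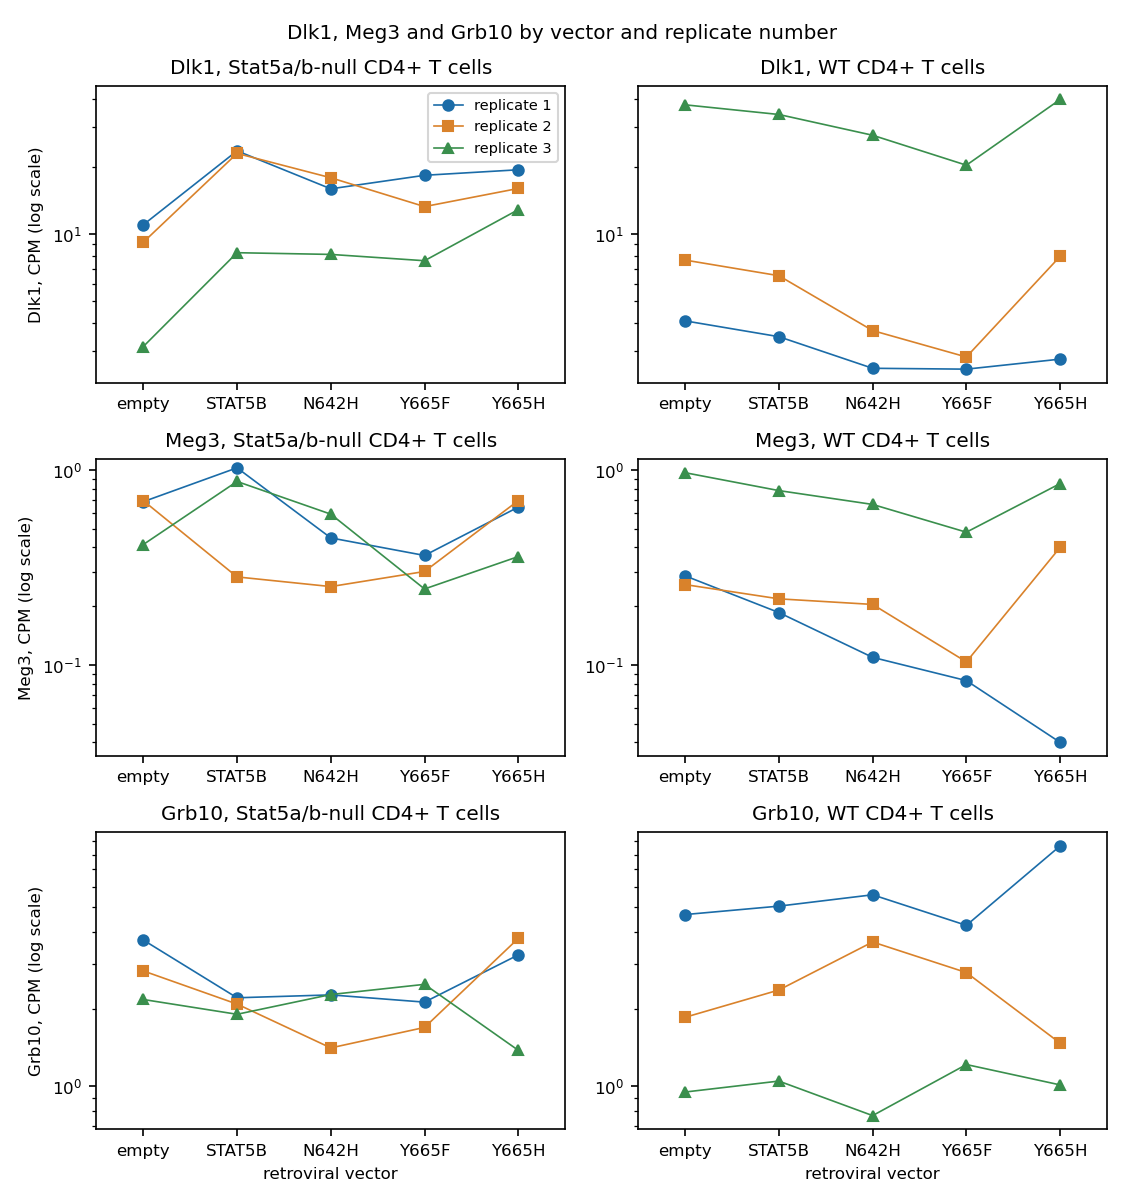
Dlk1, Meg3 and Grb10 in CPM (log scale) by vector, with 1 line per replicate number, in Stat5a/b-null (left) and WT (right) CD4+ T cells. Dlk1 and Meg3 of WT replicate 3 lie above both other replicates with every vector, while Grb10 of WT replicate 3 lies below them.

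Grb10, which encodes an adaptor that dampens insulin and IGF receptor signalling, ran the other way over the WT replicates. Replicate 1 had 102 to 217 reads, replicate 2 had 44 to 125 and replicate 3 had 38 to 52. Over the vectors it was not called in either background. In null cells it was 2.90 ± 0.772 CPM with the empty vector and 1.98 ± 0.498 with N642H (log2 fold change -0.60, SE 0.32, adjusted p = 0.27).

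Cdkn1c encodes p57, a maternally expressed inhibitor of cyclin-dependent kinases. It was 1.35 ± 0.627 CPM in null cells and 2.47 ± 0.313 in WT cells with the empty vector, and no vector was called. The log2 fold changes over the empty vector lay between -0.17 and 0.14 in the 8 comparisons. Peg3, a paternally expressed zinc finger gene, had 0 to 24 reads per CD4+ library and was not called with any vector.

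Plagl1, a paternally expressed zinc finger gene linked to growth arrest, was the called member between the backgrounds. With the empty vector, null libraries had 184, 224 and 268 reads and WT libraries 73, 56 and 193. Plagl1 was higher in null cells at 6.93 ± 2.13 against 2.49 ± 1.42 CPM (log2 fold change 1.47, SE 0.37, edgeR adjusted p = 0.00794). It was 1 call of 9 where 4.68% of 21975 genes were called. The call was lost without null empty replicate 3 (1.21, adjusted p = 0.0521) or WT empty replicate 2 (1.16, adjusted p = 0.0775).

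By adjusted p alone, 2 of the 9 genes differed between null and WT cells with the empty vector, Plagl1 and Igf2r (log2 fold change -0.47, SE 0.15, adjusted p = 0.0396), against 13.9% of all genes. Plagl1 in WT cells with N642H had 106, 182 and 269 reads, all above the empty vector in CPM (log2 fold change 1.15, SE 0.37, adjusted p = 0.179), and was not called by edgeR without the block. It was called there by DESeq2 and with the replicate number as a block, which called 2.59% of all genes.

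Set against STAT5B itself in null cells, the mutants gave no call among the 9 genes by edgeR or DESeq2. With N642H 0.0696% of all genes were called, with Y665F 0.00994% and with Y665H 0.149%. At an unadjusted p under 0.05 there were 1, 2 and 1 genes. Mest was nearest with N642H (log2 fold change 0.93, SE 0.32, adjusted p = 0.634). In this contrast the H19 ratio of mean CPM was 30.8 for N642H, 26.1 for Y665F and 0.235 for Y665H.

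In WT cells none of the 9 genes was called with STAT5B against 0.00975% of all genes, with 1 at an unadjusted p under 0.05, which was Igf2, and 0 by DESeq2. With Y665H none of the 10 was called against 0.00488%, with 0 at an unadjusted p under 0.05 and 0 by DESeq2.

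The response to a construct was also compared between null and WT cells by an interaction term. None of the 9 genes was called by edgeR or DESeq2. The shares of all genes called were 0.419% for Y665F, 0.341% for N642H and 0.1% for STAT5B, and 1, 2 and 0 of the 9 genes had an unadjusted p under 0.05. For Igf2 the response to Y665F was smaller in null cells by 2.87 on the log2 scale (SE 1.58, adjusted p = 0.59), which did not pass.

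The median log2 fold change of the 9 genes stayed near that of all genes in the CD4+ T cells. It was 0.03 with N642H in null cells against 0.01 over all genes, and 0.13 with Y665F in WT cells against -0.08. The 57 other imprinted genes gave 0 calls by edgeR in each of the 8 comparisons of a vector with the empty vector, among 52 tested in null and 53 in WT cells. At an unadjusted p under 0.05 there were 2, 3, 4 and 3 in null cells and 1, 3, 5 and 0 in WT cells, in the order STAT5B, N642H, Y665F, Y665H.

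Genes of the IGF axis around Igf2 gave calls in both directions. Igfbp4, which encodes a protein that binds IGFs outside the cell, rose in null cells with STAT5B (log2 fold change 2.23, SE 0.32, adjusted p = 0.00125), N642H (1.83, SE 0.32, adjusted p = 0.00111) and Y665F (1.84, SE 0.32, adjusted p = 0.0014). It fell in WT cells with N642H (-1.56, SE 0.29, adjusted p = 0.0108) and Y665F (-1.71, SE 0.29, adjusted p = 0.00885). Levels with the empty vector were 31.6 ± 12.7 CPM in null and 482 ± 186 in WT cells. Igfals, the acid-labile subunit that carries IGF complexes in blood, rose in WT cells from 0.167 to 1.59 CPM with N642H (3.24, SE 0.68, adjusted p = 0.022) and 1.67 with Y665F (3.32, SE 0.67, adjusted p = 0.024).

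In null cells the IGF axis, with 13 genes tested, had 1 call each for STAT5B and N642H, 2 for Y665F (Igfbp4 and Igfals) and none for Y665H, where 1 gene had an unadjusted p under 0.05. In WT cells, with 14 tested, N642H and Y665F had 2 calls each and STAT5B and Y665H 0 (3 and 1 at an unadjusted p under 0.05). Of all genes in WT cells, 0.985% were called with N642H, 0.707% with Y665F, 0.00975% with STAT5B and 0.00488% with Y665H. Between the backgrounds with the empty vector, Igfbp4 (-3.93) and Igfals (-3.64) were lower in null cells, and of the other imprinted genes Ddc (-1.03, adjusted p = 0.0487). Among the 6 inhibitors of the Cip/Kip and INK4 families that stand beside Cdkn1c, Cdkn1a, which encodes p21, was called. It rose in WT cells with N642H (log2 fold change 1.66, SE 0.30, adjusted p = 0.0103) and Y665F (1.38, SE 0.30, adjusted p = 0.0342), from 62.3 ± 25.8 CPM to 195 ± 25.3 and 161 ± 32.0. The other 5 were not called with any vector.

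Splenic T cells held almost no H19, with 0 to 6 reads per library. WT libraries had 0, 0, 1 and 5 reads, Y665H libraries 1, 0, 3 and 1, and Y665F libraries 3, 0, 4 and 4 with cytokines and 6, 0 and 2 without. The 3 genotypes overlapped. In the 5 libraries with 0 reads, the limit that a count of 0 allows ran from 0.151 to 1.46 CPM, counting error only, so a lower level was not detectable in those libraries. Y665F over WT gave a log2 fold change of 1.69 (SE 1.29, edgeR adjusted p = 0.461).

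The Y665F library with cytokines numbered 3 stood apart, at 2851451 reads on genes, with summed marker levels of 838.7 CPM for erythroid, 713.3 for B cell and 294.9 for neutrophil genes. Its 3 companions had 6.48 to 67.7, 19.8 to 199.9 and 69.0 to 73.1 CPM. The share of reads outside genes was 67.57 to 84.03% in this group and 63.91 to 72.55% in WT. Of the neutrophil markers 4 of 7 were called higher in Y665F than in WT T cells. Their part in the values of the 10 genes was not tested.

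No member was called in splenic T cells. Between Y665F and WT, 0 of 10 genes was called by edgeR against 1.53% of 22313 genes, with 1 at an unadjusted p under 0.05 and 0 by DESeq2. That gene was Mest, with 82, 130, 120 and 75 reads in WT and 174, 144, 29 and 138 in Y665F. In CPM the Y665F libraries lay at 8.61 to 10.2, all above the WT libraries at 4.92 to 6.82, the low-depth library among them at 8.84. The log2 fold change was 0.69 (SE 0.26, adjusted p = 0.149).

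Between Y665H and WT T cells 0 of 10 genes was called against 0.0717%, with 0 at an unadjusted p under 0.05 and 0 by DESeq2. Between Y665F and Y665H 0 of 10 was called against 4.78%, also with 0 and 0. The Y665H libraries were shallower, with a median of 4318848 reads on genes against 18856548 in WT, which limits what could be called for scarce genes. Both comparisons also count Y665H library 4 as a library of its own, as does the spread used for Y665F over WT and for cytokines. Mest in Y665H libraries ran from 5.35 to 10.7 CPM and overlapped both other genotypes. The median log2 fold change of the 10 genes was 0.57 for Y665F over WT against 0.07 over all genes.

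Within Y665F T cells, cytokines for 24 h were set against none. The study describes T cells without cytokine as sequenced directly after isolation, so culture and cytokines cannot be told apart. By edgeR 0 of 10 genes was called against 2.97%, with 1 at an unadjusted p under 0.05 and 0 by DESeq2. Peg3 had 2, 1, 0 and 6 reads with cytokines and 18, 12 and 4 without (log2 fold change -2.51, SE 0.88, adjusted p = 0.127). Igf2 had 8, 7, 2 and 12 reads with and 21, 13 and 16 without, 0.396 to 0.848 against 0.993 to 2.25 CPM, with no overlap and an adjusted p of 0.336. The median log2 fold change of the 10 genes was -0.67 against -0.13 over all genes.

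**Figure D4:**
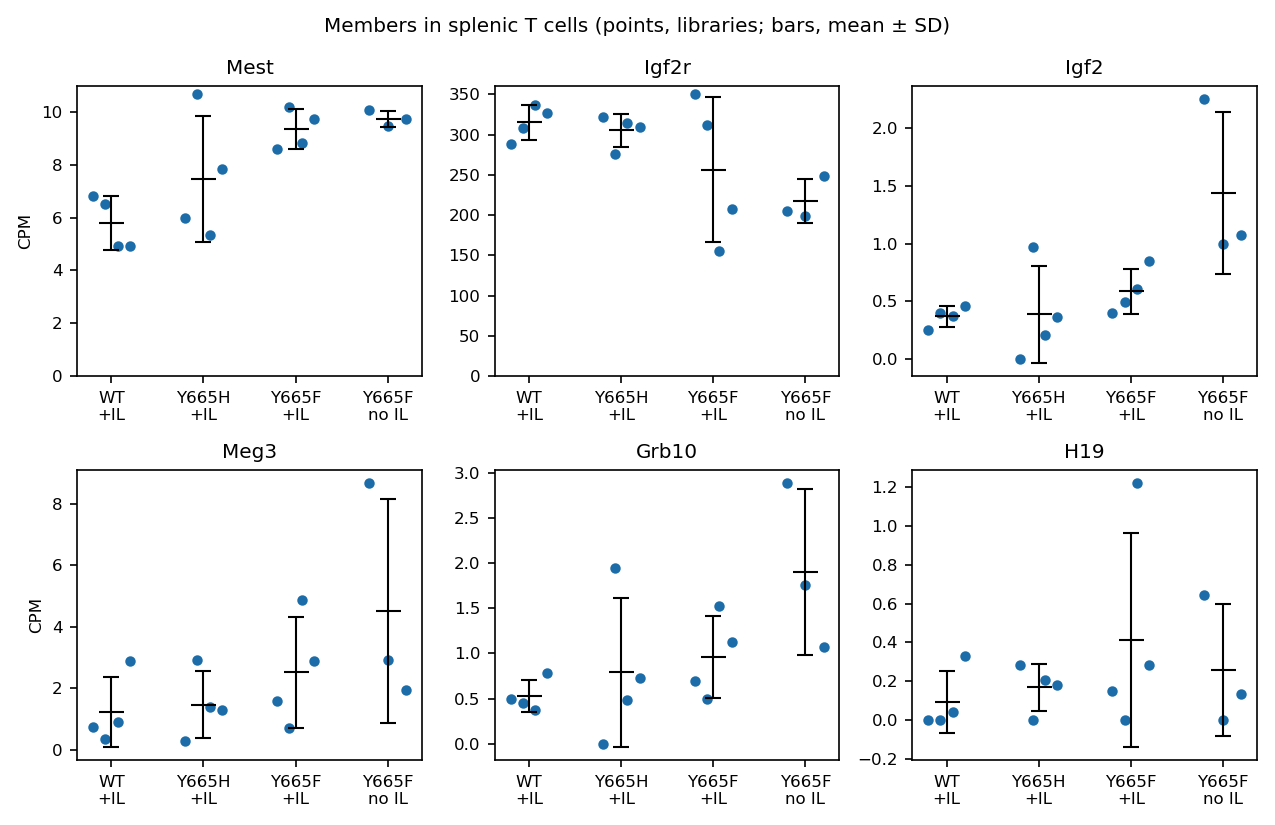
Mest, Igf2r, Igf2, Meg3, Grb10 and H19 in CPM in the 15 splenic T cell libraries, by Stat5b genotype and cytokines (IL); points are libraries and bars the mean with its SD. The 4 Y665F libraries with cytokines lie above the 4 WT libraries for Mest, and H19 stays at or below 1.22 CPM.

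Related lists gave a few calls in splenic T cells. Of all genes, 1.53% were called between Y665F and WT, 4.78% between Y665F and Y665H and 2.97% with cytokines against none. Of the 53 other imprinted genes tested, Cd81 was lower (log2 fold change -1.20, adjusted p = 0.0154) and Airn, the non-coding RNA antisense to Igf2r, higher (1.09, adjusted p = 0.0318) in Y665F than in WT. Airn was 16.6 ± 6.3 CPM in WT and 35.4 ± 8.5 in Y665F, while Igf2r was 315 ± 21.3 and 256 ± 90.3. Airn overlaps Igf2r on the opposite strand, and without the strand setting reads of the pair cannot all be told apart. Cdkn1b, which encodes p27, was lower in Y665F at 187 against 417 CPM (-1.16, SE 0.21, adjusted p = 0.00581). Between Y665F and Y665H, Ddc was higher (2.20), Cdkn1a was higher (2.73), Cd81 (-1.48), Tspan32 (-1.01), Igf1r (-1.26) and Igfbp4 (-1.06) were lower, and with cytokines against none Igfbp4 was higher (1.88).

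Spleens had low H19 in every genotype. WT libraries had 8, 24, 12 and 16 reads, Y665H libraries 11, 14, 9, 11 and 17, and Y665F libraries from 2 to 17 with a median of 11. The means were 0.5 ± 0.253, 0.374 ± 0.112 and 0.326 ± 0.154 CPM, and all genotypes overlapped. Y665F over WT had a log2 fold change of -0.59 (SE 0.38, edgeR adjusted p = 0.317). Y665H over WT had one of -0.42 (SE 0.40, adjusted p = 0.503).

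Other members were more abundant in spleens than H19. Grb10 stood at 38.2 ± 8.99 CPM in WT, Igf2 at 8.11 ± 1.14, Peg3 at 7.78 ± 0.465, Mest at 6.54 ± 0.908 and Meg3 at 2.39 ± 0.574. Spleens contain erythroid cells, granulocytes and stroma along with lymphocytes, the titles name splenocytes, and fewer cells of a type and less RNA per cell cannot be told apart in these samples. Summed erythroid markers were 505 to 960 CPM in WT, 323 to 2401 in Y665H and 217 to 703 in Y665F, and neutrophil markers 194 to 316, 120 to 1535 and 389 to 951. The 10 stromal and endothelial genes summed to 861 to 943, 785 to 998 and 820 to 1019 CPM.

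Peg3 was the called member in spleens. Its reads were 206, 232, 234 and 271 in WT, 311, 432, 305, 299 and 549 in Y665H and 109 to 228 with a median of 178 in Y665F. In CPM the order was Y665F at 4.43 to 6.48, WT at 7.25 to 8.35 and Y665H at 8.75 to 18.4, with no overlap between genotypes. Peg3 was lower in Y665F than in Y665H (log2 fold change -1.02, SE 0.15, edgeR adjusted p = 0.000159), 1 call of 10 where 5.28% of 19418 genes were called. In the same comparison 4 of 5 tested erythroid markers were called lower and 4 of 10 T cell markers higher in Y665F, and their part was not tested. Without Y665H replicate 5, the highest, the log2 fold change was -0.77 (adjusted p = 5.94e-05), which is short of the fold required, and it was -0.99 without Y665F replicate 1 and -0.96 without Y665F replicate 3.

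By adjusted p alone, 4 of the 10 genes differed between Y665F and Y665H spleens against 25.8% of all genes. Beside Peg3, these were Igf2, with a log2 fold change of -0.77 (SE 0.17, adjusted p = 0.00338), Igf2r at 0.28 (SE 0.05, adjusted p = 0.000479) and Cdkn1c at -0.45 (SE 0.16, adjusted p = 0.0498). Igf2 ran from 4.56 to 7.21 CPM in Y665F and from 7.39 to 16 in Y665H, without overlap. Its highest library, Y665H replicate 1, had the lowest erythroid and neutrophil sums of that genotype, at 322.6 and 120 CPM. Peg3 in that library was 9.98 CPM, inside the range of its group.

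Between Y665F and WT spleens, 0 of 10 genes was called by edgeR against 1.2%, with 6 at an unadjusted p under 0.05 and 0 by DESeq2. By adjusted p alone 3 differed against 12.2% of all genes. Grb10 was 26.9 ± 2.98 CPM in Y665F, with a log2 fold change of -0.50 (SE 0.12, adjusted p = 0.012). Cdkn1c was 1.39 ± 0.314 in Y665F and 2.21 ± 0.377 in WT (-0.66, SE 0.17, adjusted p = 0.0206). Igf2r was 160 ± 7.09 and 141 ± 5.60 (0.19, SE 0.05, adjusted p = 0.0241). Meg3 at 0.67 (adjusted p = 0.0584), Peg3 at -0.47 (0.0694) and Igf2 at -0.47 (0.106) did not pass. The median over the 10 genes was -0.35 on the log2 scale against -0.0043 over all genes. Beside these values, 5 of 7 neutrophil markers and 1 of 10 stromal and endothelial markers were called higher in Y665F than in WT. Summed T cell markers were 672 to 966.6 CPM in Y665F against 520.2 to 633 in WT, and macrophage markers 868.3 to 1201 against 1208 to 1552, both without overlap, though no gene of either list was called (8 of 10 and 3 of 8 at an unadjusted p under 0.05). Their part was not tested.

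Between Y665H and WT spleens, 0 of 10 genes was called by edgeR against 4.37%, with 2 at an unadjusted p under 0.05 and 0 by DESeq2. By adjusted p alone 2 differed against 19.8% of all genes. Meg3 was 4.43 ± 1.40 CPM in Y665H against 2.39 ± 0.574 (log2 fold change 0.90, SE 0.24, adjusted p = 0.0127), and Peg3 was 11.5 ± 3.91 against 7.78 ± 0.465 (0.56, SE 0.17, adjusted p = 0.0314). Meg3 was also 3.77 ± 0.63 in Y665F, so both mutants had higher means than WT.

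**Figure D5:**
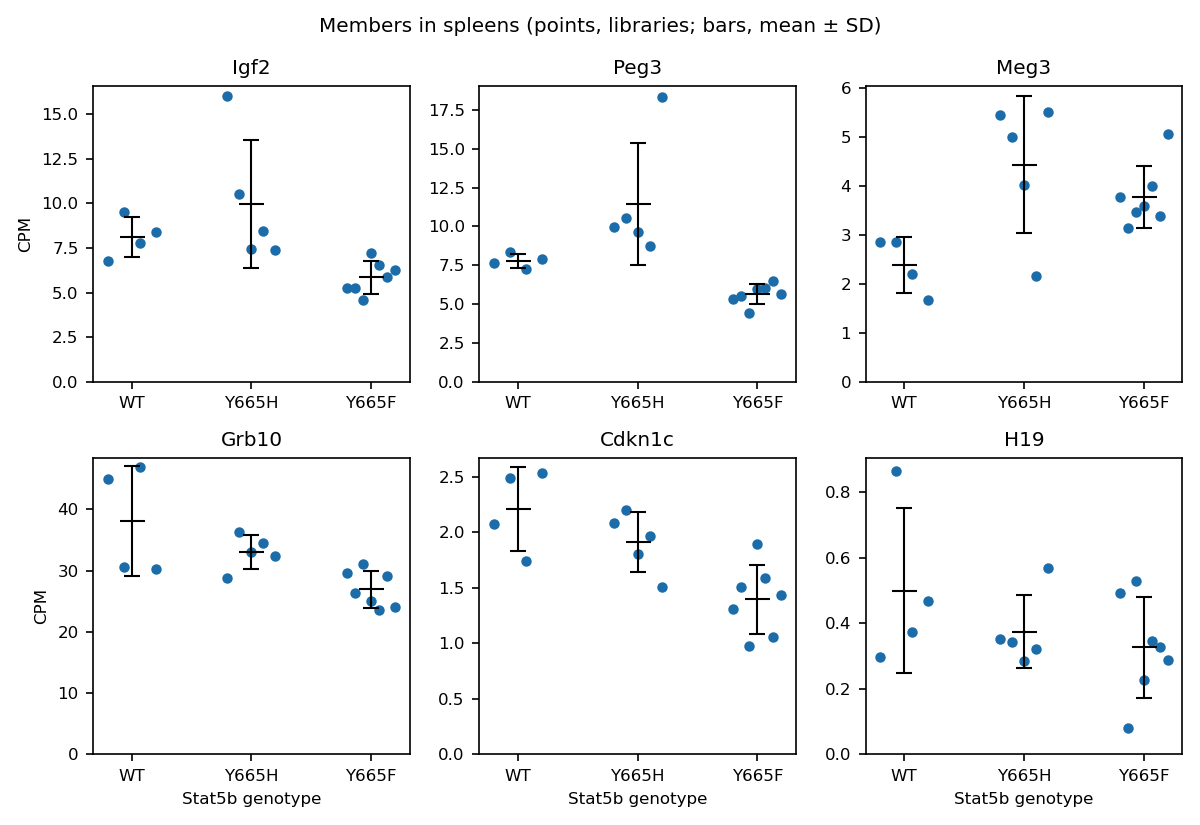
Igf2, Peg3, Meg3, Grb10, Cdkn1c and H19 in CPM in the 16 spleen libraries by Stat5b genotype; points are libraries and bars the mean with its SD. Peg3 separates the 3 genotypes, from 4.43 to 6.48 CPM in Y665F up to 8.75 to 18.4 in Y665H, and H19 stays below 1 CPM.

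Among the 50 other imprinted genes tested in spleens, Ddc was lower in Y665H than in WT (log2 fold change -1.18, adjusted p = 0.00232) and higher in Y665F than in Y665H (2.10, adjusted p = 1.36e-06), and Zdbf2 was lower in Y665F than in Y665H (-1.02, adjusted p = 0.00652). No gene of the IGF axis was called among 15, with 3, 4 and 3 at an unadjusted p under 0.05 for Y665F and Y665H over WT and for Y665F over Y665H. Cdkn2c and Cdkn2d, which encode INK4 inhibitors, were higher in Y665H than in WT (1.20 and 1.06), and Cdkn2c was lower in Y665F than in Y665H (-1.17). These values stand beside 7 of 7 neutrophil and 3 of 5 erythroid markers called higher in Y665H than in WT, and their part was not tested.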

How the data were processed

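RNA was depleted of ribosomal RNA, made into TruSeq stranded total RNA libraries and sequenced paired-end. The authors trimmed reads with Trimmomatic 0.36, aligned them to mm10 with STAR and counted them with HTSeq 0.9.1, and the deposited files hold these raw counts per gene. The strand setting and annotation of the counting are not given in the sources used here. The 5 closing lines, 28.44 to 36.86% of reads in CD4+ T cells, 63.91 to 85.72% in splenic T cells and 62.83 to 69.44% in spleens for reads without a gene, were left out. Groups came from titles.

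Counts were fitted in R 4.3.3 with edgeR 4.0.16 (TMM, glmQLFit, glmQLFTest) in 5 fits: null, WT, both backgrounds, splenic T cells and spleens, on genes with at least 10 reads over a fit. P-values were adjusted by Benjamini-Hochberg over all genes of the fit. A call needed adjusted p below 0.05 together with a log2 difference beyond 1 in either direction. The standard error is the log2 fold change over the square root of F. CPM use TMM-scaled library sizes. Levels per kb use the union of GENCODE exons on GRCm38. The study calls its CD4+ replicates biologically independent, but the labels do not say that libraries of a group came from separate animals, so p-values measure the spread between these libraries, which may be technical.

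The 10 genes and all lists (other imprinted genes, IGF axis, Cip/Kip and INK4 inhibitors, STAT5 targets and cell markers) were chosen with earlier results of these data known. Named genes are the 10, called genes of these lists up to 4 per comparison, genes within 250 kb of H19, and the 5 genes closest in Pearson r to H19, Dlk1 and Mest among those with a mean of at least 1 CPM. The genes closest to Dlk1 are not reported here. The STAT5 target list, 3 genes that check the constructs, had 3, 3, 3 and 1 called higher in null cells (STAT5B, N642H, Y665F, Y665H) and none in WT cells.

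Same-numbered libraries deviated together in null cells, where 30 of 30 pairs had a correlation above 0.1 (median 0.465), so values with the number as a block stand beside results whose call they change. This held for 29 of 30 pairs in WT cells, 94 of 135 over both backgrounds, 5 of 21 in splenic T cells and 4 of 13 in spleens. Alternatives were RLE size factors, DESeq2 1.42.0, filterByExpr, no filter beyond 1 read, the groups compared alone, the block, calls by adjusted p alone, and each library left out in turn. The scripts were tested on simulated data.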

Additional observations from a re-analysis of the deposited data

Results flagged for a closer look

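Of 60 sets of 4 to 10 libraries, 1 set per gene and group, 4 had a library far from the others by Dixon's ratio, where chance flags about 1 in 20. WT splenic T cells replicate 4 had H19 at 0.328 CPM, or 5 reads, against 0 to 0.0412 CPM in its group. WT spleen replicate 1 had Mest at 7.89 CPM against 5.94 to 6.265. Y665H spleen replicate 5 was set apart for both H19, at 0.5683 CPM or 17 reads against 0.285 to 0.353, and Peg3, at 18.4 CPM or 549 reads against 8.75 to 10.5. The call of Peg3 between Y665F and Y665H spleens was lost without that library.

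Igfbp4 differed between backgrounds in its response to every construct tested by an interaction term. The log2 fold change over the empty vector was larger in null than in WT cells by 3.60 with Y665F (SE 0.47, edgeR adjusted p = 6.39e-05), by 3.45 with N642H (SE 0.47, adjusted p = 9.18e-05) and by 3.31 with STAT5B (SE 0.47, adjusted p = 0.000369). It was the only gene of the IGF axis called in these terms.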

How the results depend on the processing

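Alternatives that kept all libraries left the count of called members within 1.5 times of the first in 142 settings and moved it in 16. In most comparisons the first fit called no member, and a count that stayed at 0 was taken as within that bound. With the replicate block in null cells, 1 gene was called with STAT5B (Dlk1), against 1.01% of all genes. N642H gave 2 (Igf2 and Mest) against 3.76%, and Y665H gave 1 (Dlk1) against 0.104%. The numbers of WT cells did not meet the pairing rule. With the block there, N642H gave 2 calls (Igf2 and Plagl1) against 2.59% of all genes. Y665F gave 3 (Igf2, Mest and Dlk1, the last at -1.02, edgeR adjusted p = 0.000292) against 2.44%. WT libraries correlated best with their own number in 14 of 15 cases. The block changed no other count. A block of its own in each background, chosen after seeing the data, gave 3 calls between the backgrounds (Meg3, Dlk1 and Plagl1), 1 for the Y665F and 1 for the STAT5B response (Dlk1) and 2 for the N642H response (Dlk1 and Plagl1), and turned Dlk1 between the backgrounds from -1.08 to 1.29. DESeq2 called 2 genes in WT cells with N642H (Igf2 and Plagl1). The shares of all genes called by DESeq2 and with a block of its own in each background are not reported here. With no filter on low counts or with only the groups compared, Mest with Y665F in null cells was lost, leaving 0 calls (adjusted p = 0.054 and 0.0622). Without the fold minimum 2 genes differed between the backgrounds, 3 in Y665F and 2 in Y665H spleens over WT, and 4 between Y665F and Y665H spleens.

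Leaving out 1 library gave 0 to 1 calls with N642H and with Y665F in null cells, 0 to 2 with N642H and 0 to 1 with Y665F in WT cells, 0 to 1 between the backgrounds, and 0 to 1 in Y665H spleens over WT and in Y665F over Y665H spleens. In Y665H spleens over WT, Meg3 was called without WT replicate 1 or 2 or Y665H replicate 4. Dlk1 ran from -2.65 to 0.59 with Y665F in WT cells, from -1.54 to 0.43 between the backgrounds, from -0.17 to 3.24 in the N642H response and from -0.13 to 2.97 in the STAT5B response, and turned in each without WT empty replicate 3. Meg3 between the backgrounds ran from -0.078 to 1.16 and turned without WT empty replicate 1 or 2. The causes were not tested. Of 206 pairs of gene and comparison, 12 changed sign under an alternative with all libraries and 76 without 1 library. Depth limits the called genes too: Igf2 had 0 to 66 and Mest 12 to 92 reads in CD4+ T cells, where Meg3 and Peg3 were also under 100 reads, as were H19, Igf2, Dlk1, Grb10 and Peg3 in splenic T cells and H19 in spleens.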

Other observations

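Mest had close followers of its own over the 30 CD4+ libraries, by Pearson r of log2(CPM + 1), which describes libraries that share vectors and replicate numbers. The 5 closest were Plaur (0.816), Zdhhc14 (0.803), Tmcc1 (0.803), Dgkh (0.803) and Hsph1 (0.798).

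Igf2r was the most abundant of the 10 genes per kb of exon in each of the 3 experiments, except in CD4+ T cells of WT mice with N642H or Y665F, where H19 led. It led in every splenic T cell and spleen group, at 33.9 ± 2.29 CPM per kb in WT T cells and 15.1 ± 0.602 in WT spleens, and Grb10 was next in WT spleens at 4.20 ± 0.989. In CD4+ T cells with the empty vector Igf2r was followed by Dlk1, at 1.37 ± 0.727 in null and 2.92 ± 3.27 in WT cells.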
